A study of Homo sapiens with 282 samples.

Results

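The 10 tubulin genes TUBB, TUBB2A, TUBB3, TUBB4B, TUBB6, TUBA1A, TUBA1B, TUBA1C, TUBA4A and TUBG1 were followed in OCI-Ly3 cells treated with a panel of drugs. They were chosen by symbol. Each was read from its brightest probe set on average, and all 10 were found among 18239 measured genes. OCI-Ly3 is an established line from a human diffuse large B cell lymphoma, grown in IMDM with FCS. Cells in 96-well plates received 1 of 14 compounds and were collected after 6, 12 or 24 h, and each well gave 1 RNA preparation for 1 HT HG-U219 array, 282 arrays in all. At each time 13 compounds had 3 arrays at each of 2 labelled doses, in uM: vincristine 0.005 and 0.01, monastrol 50 and 100, cycloheximide 0.264 and 5, camptothecin 0.01 and 0.31, trichostatin A 0.114 and 0.143, H-7 12.4 and 20.2, rapamycin 13.8 and 22, geldanamycin 0.001 and 0.032, doxorubicin 0.03 and 0.101, etoposide 0.811 and 0.812, blebbistatin 10 and 100, aclacinomycin A 0.036 and 0.105, and mitomycin C 0.553 and 2.56. Methotrexate had 6 arrays at 100 uM, medium alone had 2, and the vehicle DMSO, labelled 1%, had 8. The labels do not say that replicate wells came from separate cultures. The p-values therefore measure a spread between replicate wells that may be technical and that is pooled over all groups in a fit. The share of DMSO in the drug wells is not stated in the labels.

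Microtubules are polymers of dimers, each of 1 alpha- and 1 beta-tubulin chain, and gamma-tubulin in a ring complex starts their growth. TUBB, TUBB2A, TUBB3, TUBB4B and TUBB6 encode beta-tubulins, TUBA1A, TUBA1B, TUBA1C and TUBA4A alpha-tubulins, and TUBG1 gamma-tubulin. In animal cells an excess of free dimers is known to speed the decay of tubulin mRNAs that are being translated, a feedback in which TTC5 recognises the first residues of the nascent tubulin chain. Vincristine, a vinca alkaloid, binds beta-tubulin and blocks assembly, whereas monastrol inhibits the mitotic kinesin KIF11 and does not bind tubulin. Cycloheximide stops ribosomes during elongation.

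The 100 bases before the annotated starts are shown for the 4 beta-tubulin genes lowered by vincristine at 6 h and for TUBA4A, the gene with the widest range of changes there. They are from RefSeq, build GRCh38.p14, written 5′ to 3′ on the strand of the gene. The windows lie at chr6:30720252-30720351 (+) and chr6:30721538-30721637 (+) for TUBB, chr6:3157545-3157644 (-) for TUBB2A, chr16:89921825-89921924 (+) and chr16:89923242-89923341 (+) for TUBB3, chr9:137241187-137241286 (+) for TUBB4B and chr2:219253919-219254018 (-) for TUBA4A. Capitals mark matches on either strand to the letters TATAA of a TATA box, to the CCAAT box and to the letters GGGCGG of a GC box. Adjacent matches run together.
TUBB first start: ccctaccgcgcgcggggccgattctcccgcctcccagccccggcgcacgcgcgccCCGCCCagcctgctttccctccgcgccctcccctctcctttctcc
TUBB second start: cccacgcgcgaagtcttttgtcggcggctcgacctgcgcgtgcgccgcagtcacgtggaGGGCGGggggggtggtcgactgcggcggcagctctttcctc
TUBB2A: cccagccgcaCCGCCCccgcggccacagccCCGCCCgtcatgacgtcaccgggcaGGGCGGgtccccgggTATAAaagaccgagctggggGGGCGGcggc
TUBB3 first start: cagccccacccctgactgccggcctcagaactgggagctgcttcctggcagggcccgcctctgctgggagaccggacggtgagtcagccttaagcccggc
TUBB3 second start: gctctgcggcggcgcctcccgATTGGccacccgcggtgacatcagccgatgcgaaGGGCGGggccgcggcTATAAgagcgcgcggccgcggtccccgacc
TUBB4B: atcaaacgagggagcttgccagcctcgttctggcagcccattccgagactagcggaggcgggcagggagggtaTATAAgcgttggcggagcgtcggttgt
TUBA4A: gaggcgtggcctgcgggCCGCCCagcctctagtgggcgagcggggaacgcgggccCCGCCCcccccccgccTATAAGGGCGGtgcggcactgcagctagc
All 10 genes had a RefSeq window, 15 windows in all with every annotated start. TATAA stood in 5 of the 15 windows and in 9.0% of 35116 windows of the same length, GGGCGG in 8 of 15 and in 31.3%, and CCAAT in 4 of 15 and in 18.1%. TUBB2A, TUBB4B and TUBA4A held TATAA at their only start, TUBB3 and TUBA1C at their last, and the windows of TUBB, TUBB6, TUBA1A, TUBA1B and TUBG1 held none. GC content had a median of 72.0% in the tubulin windows and 60.0% in all windows. A match describes the letters and not a working site.

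Levels are the deposited log2 values, and a change is the compound's mean minus the DMSO mean of the same time, ± SE. Calls needed an adjusted p below 0.05 in limma, with Benjamini-Hochberg adjustment across the 18239 genes of each comparison. Where arrays are said to lie wholly apart from DMSO, the share of all genes so separated was not counted. RMA values are relative, so fewer cells with an mRNA and less of it per cell cannot be told apart, and how far the arrays were made equal is not stated in the sources used here. The upper quartile of the arrays lay between 8.15 and 8.35 at 6 h but between 6.91 and 8.36 at 12 h and 6.92 and 8.29 at 24 h. Arrays whose upper quartile was below 8, or whose ACTB control sets differed by more than 2 between the 3′ and 5′ ends, were taken as of low signal. There were none at 6 h, 31 at 12 h and 17 at 24 h, so the 6 h results come first. The 5 B cell markers measured averaged 4.73 (CD22) to 7.23 (PAX5) in the 8 DMSO arrays of 6 h, at percentiles 32.4 to 55.2 of all genes, whereas the neuronal genes RBFOX3, SYT1 and SNAP25 averaged 6.73, 8.09 and 11.99, at percentiles 51.5, 63.1 and 97.8. Of the haematopoietic and B lineage genes added after values were seen, MS4A1 averaged 4.64 and PTPRC 6.95, at percentiles 30.6 and 53.1, and PRDM1 10.55, CD74 13.10, IRF4 13.16 and HLA-DRA 13.23, at 90.7 to 99.5. The bearing of these marker levels on the results was not tested.

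Vincristine at 6 h lowered 4 of the 5 beta-tubulin mRNAs. TUBB, the main beta-tubulin of dividing cells, had 13.08, 13.32 and 13.16 with 0.01 uM vincristine, against 13.39 to 13.55 with a median of 13.515 in DMSO. All 3 vincristine arrays lay below all 8 DMSO arrays, a change of -0.31 ± 0.04 or 0.807-fold (adjusted p = 7.27e-08). TUBB2A had 11.87, 11.82 and 12.18 with vincristine, against 12.33 to 12.51 with a median of 12.415 in DMSO, and fell by 0.45 ± 0.05 (adjusted p = 3.63e-09). It had the largest change of the 10 genes, 0.730-fold, and its groups did not overlap either. TUBB3, a beta-tubulin best known from neurons, had 11.25, 11.17 and 11.16 with vincristine, against 11.43 to 11.63 with a median of 11.555 in DMSO, and changed by -0.35 ± 0.04 (adjusted p = 7.27e-08). TUBB4B, a broadly expressed beta-tubulin, had 13.42, 13.60 and 13.47 with vincristine, against 13.65 to 13.76 in DMSO, and changed by -0.20 ± 0.04 (adjusted p = 0.000333). In a fit without drug replicate 1, which leaves that number out of every compound, TUBB4B changed by -0.17 (adjusted p = 0.109), and with the vincristine and DMSO arrays alone its adjusted p was 0.0514.

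TUBB6 and the alpha- and gamma-tubulin genes did not pass the test with 0.01 uM vincristine. Their changes were -0.17 for TUBB6, -0.20 for TUBA1A, -0.14 for TUBA1B, -0.08 for TUBA1C, -0.23 for TUBA4A and -0.17 for TUBG1, with adjusted p between 0.0691 and 0.738. All 6 had negative changes. The vincristine arrays of TUBA4A (7.04 to 7.20, against 7.24 to 7.60 in DMSO) and TUBG1 (10.79 to 10.90, against 10.96 to 11.15) lay below every DMSO array. The share of all genes so separated was not counted. Without drug replicate 3, TUBB6 (adjusted p = 0.0110) and TUBA1A (adjusted p = 0.0296) were called, and TUBB6 was also called without DMSO replicate 5 (adjusted p = 0.0319). With each gene's probe sets averaged, TUBA1A (-0.22, adjusted p = 0.0377) and TUBA1B (-0.15, 0.00960) were called. Of all genes 0.417% were called lower and 0.532% higher, beside 4 of the 10 tubulin genes lower and 0 higher. The SE of those 4 was 0.04 to 0.05, below the median of 0.0988 over all genes, so smaller changes could pass for them. The median change of the 10 was -0.20, beside -0.01 over all genes.

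The lower dose gave the same 4 beta-tubulin genes and TUBG1. At 0.005 uM vincristine TUBB changed by -0.20 ± 0.04, TUBB2A by -0.23 ± 0.05, TUBB3 by -0.35 ± 0.04, TUBB4B by -0.14 ± 0.04 and TUBG1 by -0.21 ± 0.05, with adjusted p from 1.58e-07 to 0.0187 and 0.806% of all genes called lower. TUBB3 had 11.25, 11.14 and 11.19 at this dose, against 11.43 to 11.63 in DMSO. Some of these calls were lost when a drug replicate number was dropped, TUBB4B without replicate 1 (adjusted p = 0.136) or 2 (0.218), TUBG1 without replicate 2 (0.408) and TUBB2A without replicate 3 (0.0770). TUBB4B was also lost with another quantile normalisation (0.0742) and with the mean of all probe sets (0.147), where TUBB6 was called (-0.19, 0.00283). With replicate number added to the fit as a block, TUBB (adjusted p = 0.079), TUBB4B (0.149) and TUBG1 (0.0504) were lost. Between 0.01 and 0.005 uM no tubulin gene was called, where 0.894% of all genes were. TUBB2A came nearest with a difference of -0.23 (95% interval -0.35 to -0.10, adjusted p = 0.0535), while for TUBB3 the interval was -0.11 to 0.11.

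**Figure D1:**
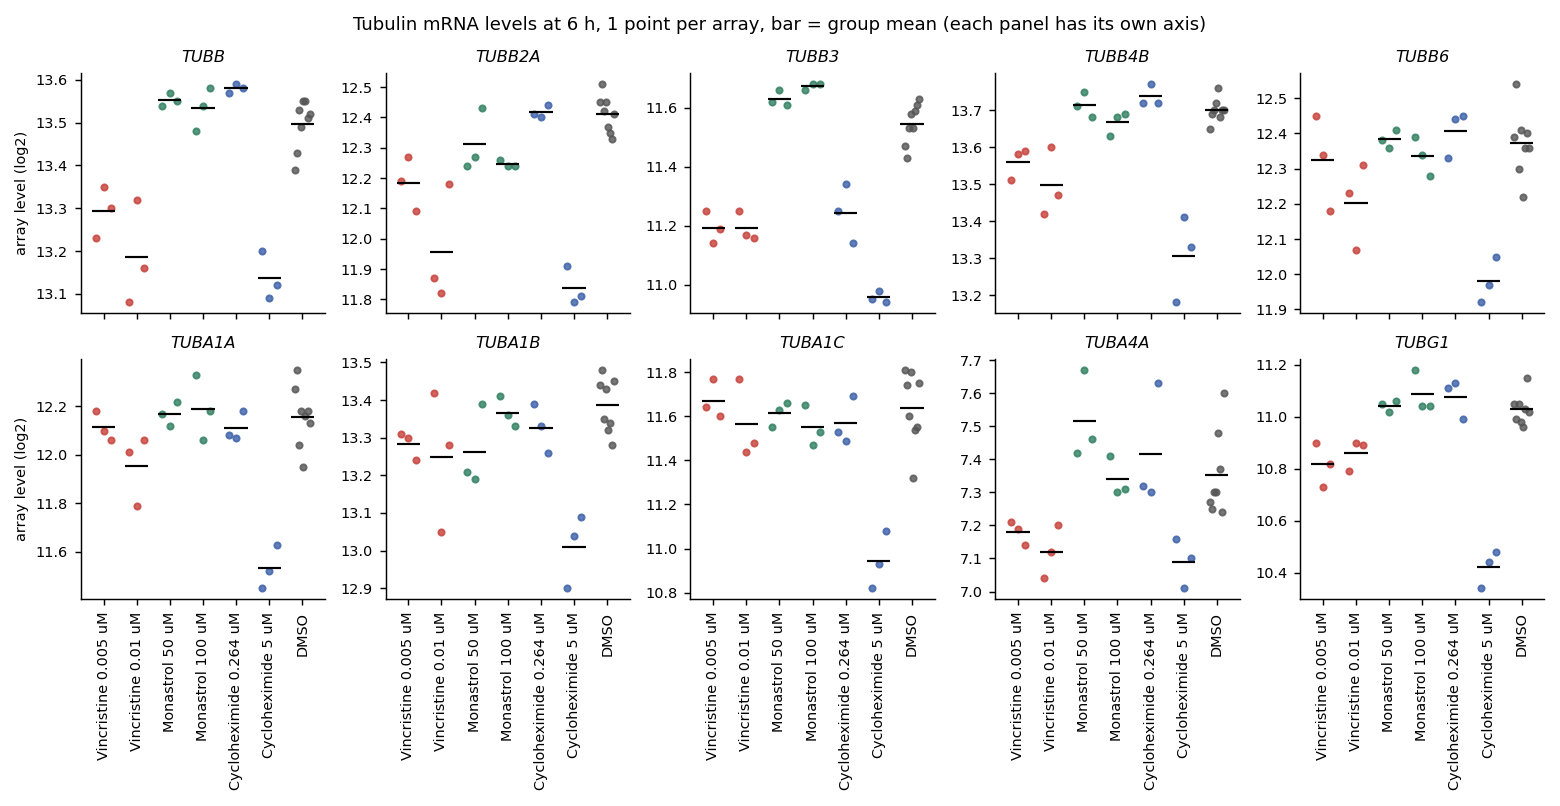
Deposited log2 levels of the 10 tubulin genes at 6 h, 1 panel per gene with its own vertical axis, for vincristine, monastrol and cycloheximide at both doses and for DMSO; each point is 1 array. The vincristine points of TUBB, TUBB2A, TUBB3 and TUBB4B and the 5 uM cycloheximide points of every gene lie below all DMSO points.

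Monastrol, which also blocks mitosis but through a kinesin, gave 1 call among the 10 genes at 6 h. TUBB had 13.48, 13.54 and 13.58 with 100 uM monastrol, against 13.39 to 13.55 in DMSO, and TUBB3 had 11.66, 11.68 and 11.68, against 11.43 to 11.63. TUBB3 thus lay just above DMSO, by 0.13 (adjusted p = 0.0636). TUBB2A alone was called, with 12.26, 12.24 and 12.24, against 12.33 to 12.51 in DMSO, a change of -0.16 ± 0.05 (adjusted p = 0.0340), where 2.99% of all genes were called lower and 4.61% higher. That call was lost without drug replicate 1 (adjusted p = 0.0901), 2 (0.154) or 3 (0.0819) and without DMSO replicate 1 (0.0538), 2 (0.0703) or 4 (0.0524), while TUBB3 was called without DMSO replicate 7 (0.0467) or 8 (0.0431). At 50 uM no member was called, beside 1.47% of all genes in either direction. The difference between the compounds was tested directly, at doses that are not matched: 0.01 uM vincristine was lower than 100 uM monastrol for TUBB (-0.35, adjusted p = 2.03e-07), TUBB2A (-0.29, 0.00121), TUBB3 (-0.48, 2.92e-10), TUBB4B (-0.17, 0.00790) and TUBG1 (-0.23, 0.00966), 5 of 10 beside 3.92% of all genes. TUBA1A differed by -0.24 (adjusted p = 0.0517), and for TUBA1C the interval was -0.18 to 0.21.

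The array reads each gene with 1 to 6 probe sets, and their names show how far they may be shared between tubulin mRNAs, which are alike in sequence. Of the 24 probe sets of the 10 genes, 14 end in x_at and 6 in s_at, the suffixes Affymetrix gives to sets that may bind other transcripts, and 4 end in at. Of the chosen sets 5 end in x_at, 4 in s_at and 1 in at, so levels of single family members are uncertain by design. With 0.01 uM vincristine 14 of the 24 sets were called lower and 0 higher. All 6 sets of TUBB were called, with changes between -0.27 and -0.55, and so were both of TUBB2A and 2 of the 3 of TUBB4B. Second sets of 3 alpha-tubulin genes, all x_at, were called although the chosen sets were not, for example TUBA1C at -0.28 against -0.08 for its chosen set. For TUBA4A the chosen x_at set changed by -0.23 and the at set by 0.03, both short of the threshold. With 100 uM monastrol 1 of the 24 sets was called and with 5 uM cycloheximide 23. The share of all probe sets called in the fits of single probe sets was not counted. Sets that may bind the same mRNAs are not separate readings.

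**Figure D2:**
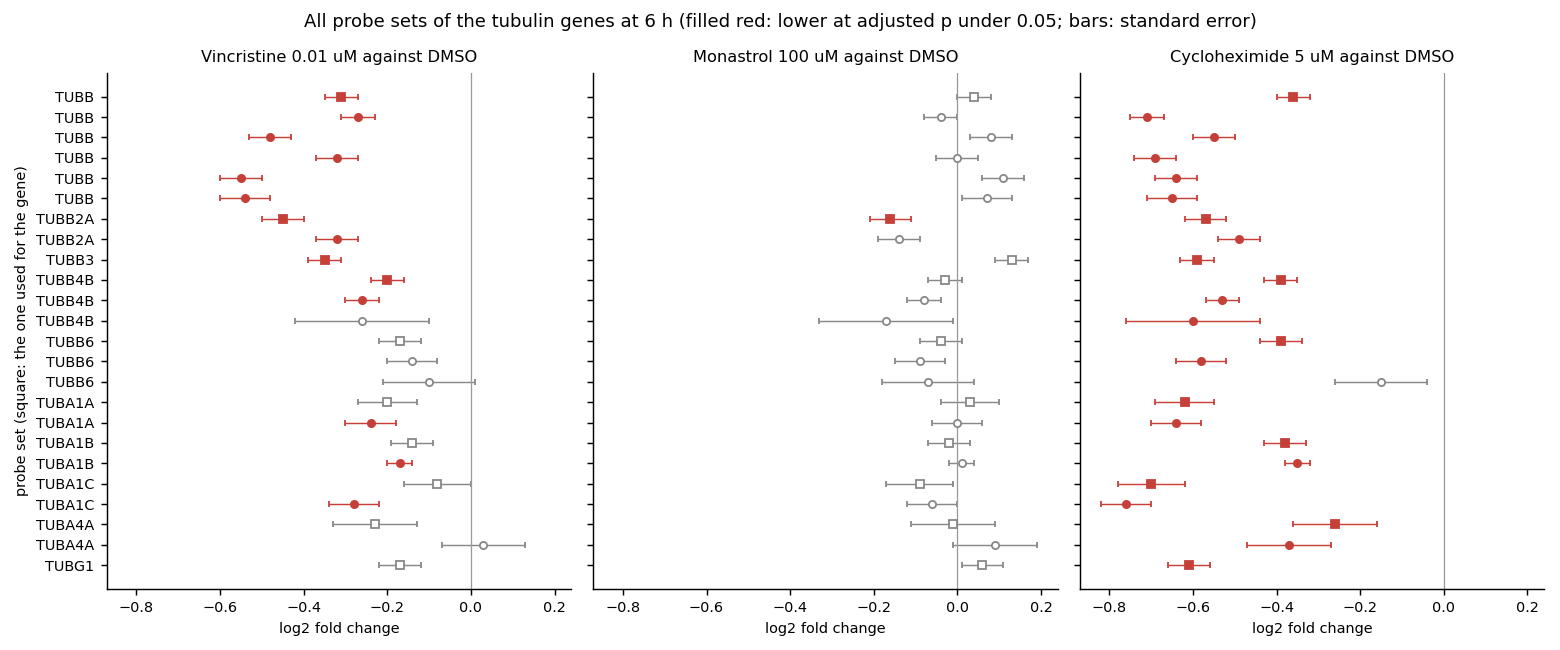
Change at 6 h (log2, compound minus DMSO) of each of the 24 probe sets of the 10 tubulin genes with vincristine, monastrol and cycloheximide. With 0.01 uM vincristine the 6 TUBB sets lie between -0.27 and -0.55, and with 5 uM cycloheximide 23 of the 24 sets were called lower. The share of all probe sets was not counted.

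Cycloheximide at 5 uM lowered all 10 mRNAs at 6 h, where 16.8% of all genes were called lower and 16.5% higher. Among the beta-tubulins TUBB3 had 10.95, 10.98 and 10.94, against 11.43 to 11.63 in DMSO, a change of -0.59 ± 0.04 (adjusted p = 2.34e-20). TUBB2A had 11.91, 11.79 and 11.81, against 12.33 to 12.51, a change of -0.57 ± 0.05 (adjusted p = 2.01e-16). TUBB changed by -0.36 ± 0.04, TUBB4B by -0.39 ± 0.04 and TUBB6 by -0.39 ± 0.05, with adjusted p of 8.07e-13, 4.63e-16 and 1.27e-10. No cycloheximide array of these 5 genes reached the lowest DMSO array, and the share of all genes so separated was not counted. The alpha-tubulins, whose chosen probe sets were not called with vincristine at 6 h, fell here as well. TUBA1C had 10.82, 10.93 and 11.08, against 11.32 to 11.81 in DMSO, a change of -0.70 ± 0.08 (adjusted p = 8.5e-12). TUBA1A had 11.45, 11.52 and 11.63, against 11.95 to 12.35, a change of -0.62 ± 0.06, and TUBA1B had 12.90, 13.04 and 13.09, against 13.28 to 13.48, a change of -0.38 ± 0.05. TUBG1 had 10.34, 10.44 and 10.48, against 10.96 to 11.15, a change of -0.61 ± 0.05 (adjusted p = 9.93e-19).

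TUBA4A was the least changed member with 5 uM cycloheximide. It had 7.16, 7.01 and 7.10, against 7.24 to 7.60 in DMSO, a change of -0.26 ± 0.10 (adjusted p = 0.0269), and the call was lost without drug replicate 1 (adjusted p = 0.0699) or 2 (0.156) or DMSO replicate 8 (0.0648). The median change of the 10 was -0.48, beside -0.03 over all genes. At 0.264 uM cycloheximide TUBB3 alone was called, with 11.25, 11.34 and 11.14 and a change of -0.30 ± 0.04 (adjusted p = 2.66e-07), where 4.44% of all genes were lower. The higher dose was below the lower one for all 10 genes, by -0.29 for TUBB3 to -0.66 for TUBG1, beside 10.8% of all genes.

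Set against H-7, an inhibitor of protein kinases with a broad response, the order of the genes differed. H-7 at 20.2 uM lowered TUBB3 the most, to 10.66, 10.57 and 10.59, against 11.43 to 11.63 in DMSO, a change of -0.94 ± 0.04 (adjusted p = 2.47e-33). TUBG1 changed by -0.78 ± 0.05 and TUBB4B by -0.70 ± 0.04, with smaller falls of TUBB6 (-0.37), TUBA4A (-0.36) and TUBB2A (-0.28), 6 of 10 beside 27.0% of all genes. With another quantile normalisation TUBA4A changed by -0.07 (adjusted p = 0.542). TUBB (0.00), TUBA1A (-0.05), TUBA1B (0.02) and TUBA1C (-0.09) did not pass the test, but with the mean of all probe sets TUBB was higher (0.09, adjusted p = 0.0153) and TUBA1C lower (-0.18, 0.0165). In the direct comparison, at doses that are not matched, 5 uM cycloheximide was lower than H-7 for TUBB (-0.36), TUBB2A (-0.30), TUBA1A (-0.58), TUBA1B (-0.40) and TUBA1C (-0.61), beside 22.9% of all genes, and higher for TUBB3 (0.35), TUBB4B (0.30) and TUBG1 (0.17), beside 25.1%. At 12.4 uM, H-7 lowered TUBB3 (-0.73), TUBG1 (-0.46), TUBB4B (-0.27) and TUBA4A (-0.26), beside 18.0% of all genes. The higher H-7 dose was below the lower one for TUBB2A, TUBB3, TUBB4B, TUBB6 and TUBG1, by -0.21 to -0.43, beside 19.4%.

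Rapamycin, which inhibits the growth-controlling kinase mTOR, lowered TUBB4B and TUBG1 but left TUBB and TUBB3 short of the threshold at 6 h. TUBB4B had 13.01, 13.08 and 12.98 at 22 uM, against 13.65 to 13.76 in DMSO, a change of -0.68 ± 0.04 (adjusted p = 8.74e-29). TUBG1 had 10.45, 10.48 and 10.47, against 10.96 to 11.15, a change of -0.56 ± 0.05. TUBA4A had 6.76, 6.56 and 6.95, against 7.24 to 7.60, a change of -0.59 ± 0.10 (adjusted p = 4.09e-07), its lowest level at 6 h. TUBB6 (-0.41), TUBB2A (-0.38), TUBA1A (-0.31) and TUBA1B (-0.27) also fell, 7 of 10 beside 13.6% of all genes, whereas TUBB3 changed by -0.05 and TUBB by -0.06. With the mean of all probe sets TUBB (-0.14, adjusted p = 0.000187) and TUBA1C (-0.20, 0.0182) were called as well. At 13.8 uM 6 genes fell, by 0.15 for TUBB2A to 0.36 for TUBB4B, beside 7.11% of all genes. The higher dose was below the lower one for TUBB2A, TUBB4B, TUBB6 and TUBG1, by -0.22 to -0.31, beside 3.76%.

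**Figure D3:**
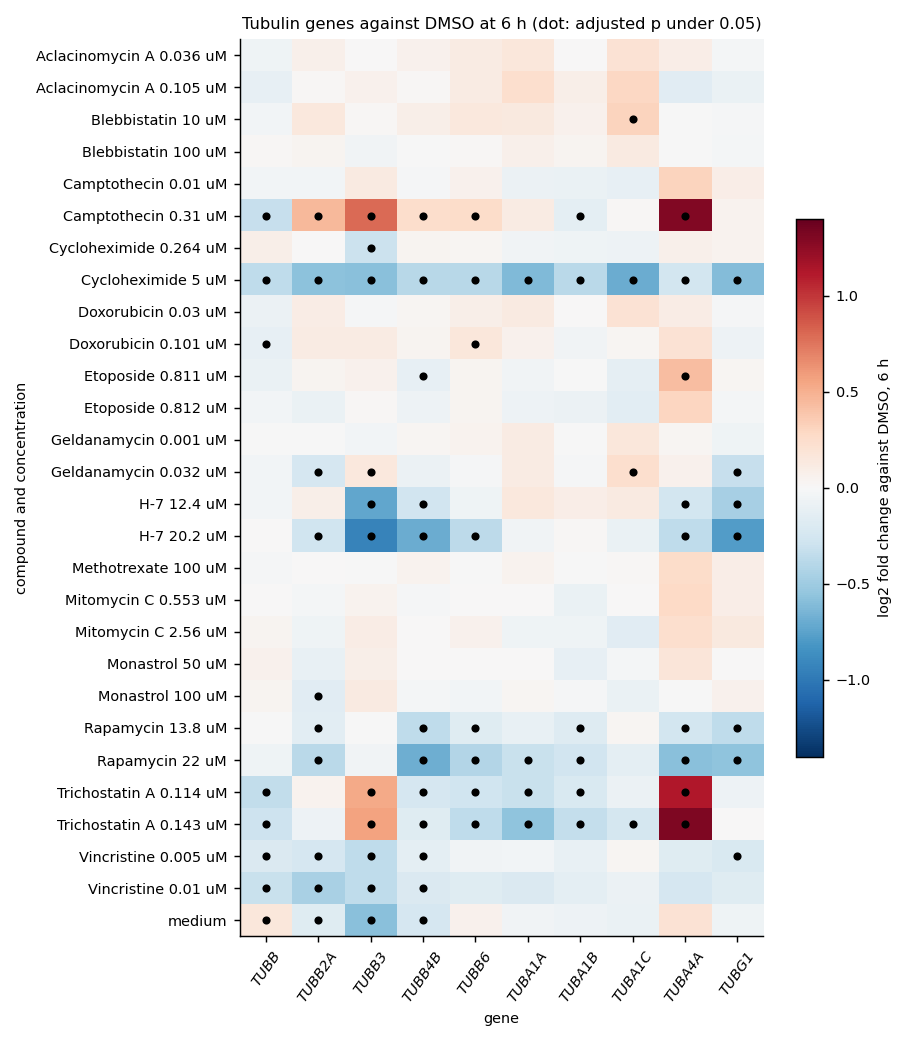
Heat map of the log2 change at 6 h of the 10 tubulin genes in 27 compound and dose groups and in medium, each minus DMSO; a dot marks an adjusted p under 0.05. TUBB is higher than DMSO with a dot only in medium, while TUBA4A and TUBB3 are higher with dots in camptothecin at 0.31 uM and in both trichostatin A doses.

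Camptothecin and trichostatin A raised TUBA4A and TUBB3 while TUBB fell. Camptothecin traps topoisomerase I on DNA, and trichostatin A inhibits histone deacetylases. TUBA4A, an alpha-tubulin, had the lowest level of the members in DMSO, at 7.24 to 7.60. It had 8.64, 8.67 and 8.63 with 0.31 uM camptothecin. With trichostatin A it had 8.49, 8.41 and 8.51 at 0.114 uM and 8.74, 8.81 and 8.42 at 0.143 uM. These are changes of 1.30 ± 0.10 with camptothecin (2.45-fold, adjusted p = 2.3e-21), 1.12 ± 0.10 at the lower and 1.31 ± 0.10 at the higher trichostatin A dose (2.47-fold, adjusted p = 1.63e-21), with no overlap between groups. The other TUBA4A probe set changed by 1.36 with camptothecin and by 1.30 with 0.143 uM trichostatin A. TUBB3 had 12.34, 12.33 and 12.33 with 0.31 uM camptothecin, against 11.43 to 11.63 in DMSO, a change of 0.79 ± 0.04 (adjusted p = 1.71e-28). With 0.143 uM trichostatin A TUBB3 had 12.13, 12.10 and 12.10, a change of 0.56 ± 0.04. TUBB changed by -0.32 ± 0.04 with camptothecin and by -0.29 ± 0.04 with 0.143 uM trichostatin A, and all 6 of its probe sets were called lower with each.

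The rest of the family split between these treatments. With 0.31 uM camptothecin TUBB2A (0.45), TUBB6 (0.26) and TUBB4B (0.25) rose, so that 5 of 10 genes were higher beside 27.0% of all genes, and 2 were lower beside 19.9%. The second of these was TUBA1B (-0.14, adjusted p = 0.00773), a call lost without drug replicate 3 (adjusted p = 0.0825). With 0.143 uM trichostatin A 2 genes were higher, beside 22.3% of all genes, and 6 lower, beside 22.4%: besides TUBB these were TUBA1A (-0.56), TUBB6 (-0.36), TUBA1B (-0.33), TUBA1C (-0.25) and TUBB4B (-0.17). TUBA1C was not called without drug replicate 2 (adjusted p = 0.171), and with the mean of all probe sets neither TUBB4B (-0.07, 0.335) nor TUBA1C (-0.15, 0.0560) was. At 0.114 uM the same genes were called except TUBA1C, 2 higher beside 22.4% of all genes and 5 lower beside 21.9%. Camptothecin at 0.01 uM gave no call, beside 3.65% of all genes in either direction, TUBA4A coming nearest at 0.31 (adjusted p = 0.0522). The higher camptothecin dose was above the lower one for TUBA4A (0.99), TUBB3 (0.66), TUBB2A (0.49), TUBB4B (0.27), TUBB6 (0.20) and TUBA1A (0.20), beside 20.9% of all genes, and below it for TUBB (-0.29), beside 18.2%.

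**Figure D4:**
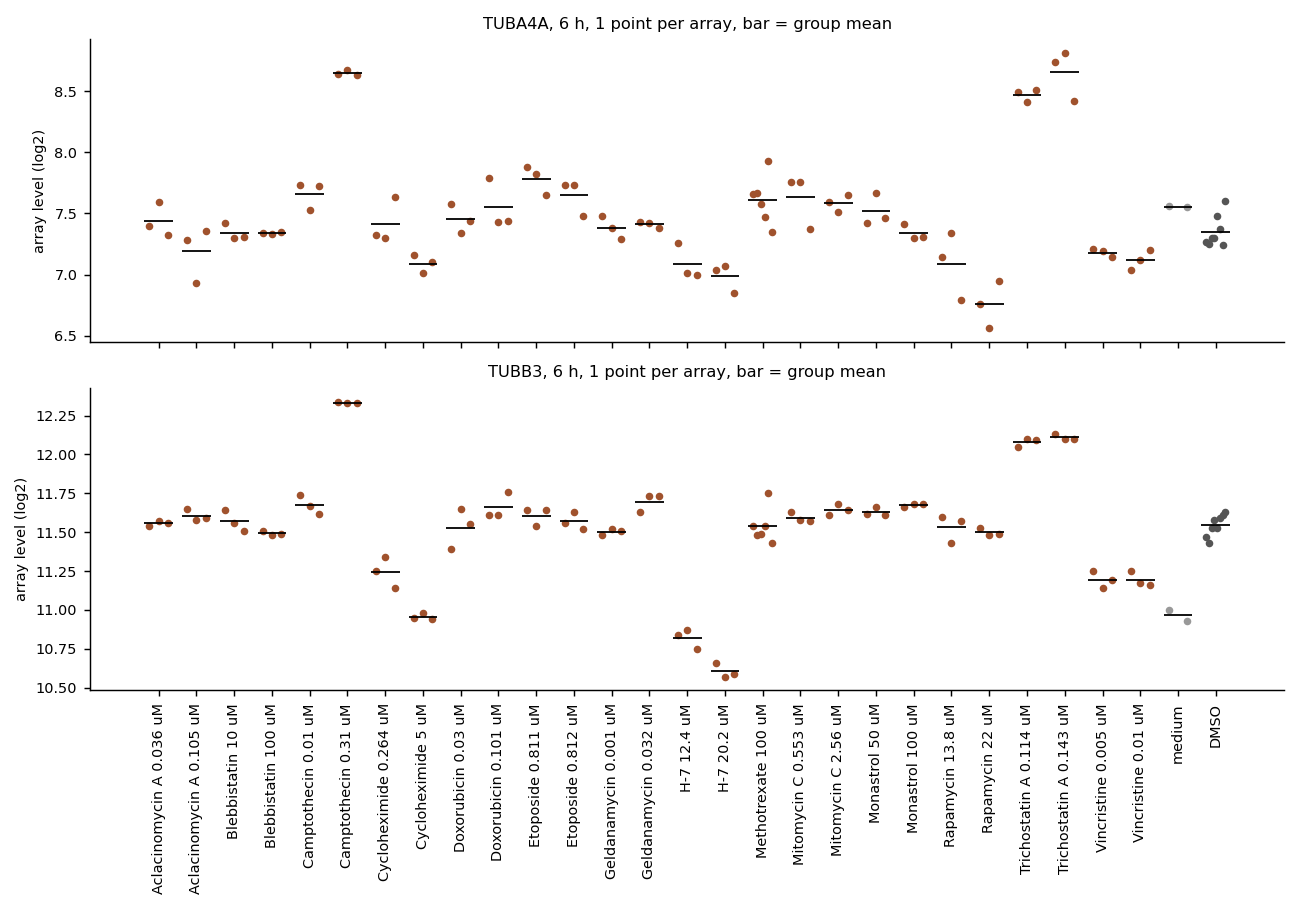
Deposited log2 levels of TUBA4A and TUBB3 at 6 h in all 29 groups, 1 point per array. Camptothecin at 0.31 uM and both trichostatin A doses stand above DMSO for both genes, H-7 lies lowest for TUBB3, and rapamycin at 22 uM lies lowest for TUBA4A.

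The other compounds moved few tubulin mRNAs at 6 h. Geldanamycin, an HSP90 inhibitor, lowered TUBG1 (-0.32, adjusted p = 4.21e-07) and TUBB2A (-0.24, 0.000196) at 0.032 uM, beside 9.75% of all genes, and raised TUBA1C (0.24, 0.0251) and TUBB3 (0.15, 0.0104), beside 6.73%. TUBB3 was lost without drug replicate 2 (0.131) or 3 (0.0658), and TUBA1C without drug replicate 1 (0.138) or 2 (0.0826) or DMSO replicate 5 (0.0749), and also with the mean of all probe sets (0.0684). Etoposide, a topoisomerase II poison, had 2 groups whose labelled doses differ by 0.001 uM. At 0.811 uM TUBA4A had 7.88, 7.82 and 7.65, against 7.24 to 7.60 in DMSO, a change of 0.43 (adjusted p = 0.000921), beside 3.56% of all genes higher, and TUBB4B changed by -0.12 (0.0265), beside 2.78% lower. At 0.812 uM no member was called, beside 4.57% of all genes in either direction. There TUBA4A changed by 0.30, and was called without drug replicate 3 (0.38, adjusted p = 0.00986) or DMSO replicate 5 (0.0450) or 8 (0.0272). Doxorubicin at 0.101 uM gave TUBB (-0.12, adjusted p = 0.0384) beside 3.74% lower and TUBB6 (0.16, 0.0330) beside 3.40% higher. Neither held throughout, since TUBB was lost without drug replicate 1 (adjusted p = 0.126), 2 (0.194) or 3 (0.107), and TUBB6 without drug replicate 1 (0.318) or 2 (0.0978). Leaving out DMSO replicate 3, 5, 6, 7 or 8 ended the call of TUBB (0.0550 to 0.0685), and leaving out DMSO replicate 3 or 5 that of TUBB6 (0.0604 and 0.0837).

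Blebbistatin, an inhibitor of myosin II, gave TUBA1C at 10 uM (0.31, adjusted p = 0.0207), beside 1.83% of all genes higher, and no member at 100 uM, beside 2.59%. Methotrexate, aclacinomycin A at 0.105 uM and mitomycin C at 2.56 uM gave none, beside 1.75%, 0.773% and 2.97% of all genes. With methotrexate TUBA4A was called without drug replicate 2 (0.30, adjusted p = 0.0399) or DMSO replicate 8 (0.0452). With aclacinomycin A TUBA1A (0.27, 0.0241) and TUBA1C (0.37, 0.0103) were called without drug replicate 3, and also without DMSO replicate 1 (0.0396 and 0.0364) or 2 (0.0214 and 0.0357), and TUBA1C without DMSO replicate 4 (0.0409). The lower doses of aclacinomycin A, doxorubicin, geldanamycin and mitomycin C gave no call, where 0%, 0.548%, 0.0822% and 0.938% of all genes were called in either direction. Over all 27 comparisons at 6 h, 75 of 270 tests of tubulin genes passed, 14 higher and 61 lower, which is 27.8% beside 13.7% of the tests of all genes. The SE of 3 arrays against 8 was 0.04 to 0.1 for the 10 genes, beside a median of 0.0988 over all genes. The part of this in the shares was not tested. TUBB was lower in 7 comparisons and higher in 0, TUBG1 likewise in 7 and 0, TUBB4B lower in 10 and higher in 1, and TUBB3 lower in 6 and higher in 4. TUBA4A had the widest range, from -0.59 to 1.31.

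Medium without vehicle differed from DMSO in 4 of the beta-tubulin genes at 6 h. TUBB3 had 11.00 and 10.93 in medium, against 11.43 to 11.63 in DMSO, a change of -0.58 ± 0.05 (adjusted p = 4.47e-16). TUBB4B (-0.24, adjusted p = 2.98e-06) and TUBB2A (-0.17, 0.0265) were lower too, 3 of 10 beside 13.8% of all genes, whereas TUBB was higher (0.16, 0.00368), beside 11.7%. TUBB3, TUBB4B and TUBB2A thus had the same direction in medium as with vincristine and TUBB the opposite one. The part of the vehicle in the changes with each drug was not tested, and both contrasts share the DMSO arrays.

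At 12 h the vincristine arrays again lay low for TUBB and TUBB3, but no gene was called with all arrays. TUBB had 12.85, 12.90 and 12.90 with 0.01 uM vincristine, against 13.07 to 13.31 in DMSO, and TUBB3 had 10.75, 10.85 and 10.85, against 11.04 to 11.30. The groups did not overlap for either gene, and the share of all genes so separated was not counted. The changes of the 10 genes lay between -0.47 and -0.03, and 0% of all genes were called. The median SE of all genes was 0.0988 at 6 h, against 0.299 here and 0.276 at 24 h. The SE pools the spread of all 29 groups of a time. For TUBB it was 0.41 here, beside a median SD within groups of 0.0586. DMSO replicates 1, 2, 3 and 8 were among the low-signal arrays. Without drug replicate 2, TUBB (adjusted p = 0.00142) and TUBA1B (0.000110) were called at 0.01 uM and TUBB (0.00528) at 0.005 uM. TUBB2A (0.00192) and TUBB6 (0.0480) were called with 100 uM monastrol when that replicate number was dropped. The share of all genes called without it was not counted. Without low-signal arrays (3 against 4) TUBB changed by -0.32 ± 0.06 (adjusted p = 0.000141), TUBA1B by -0.41 ± 0.07 (0.000248), TUBB4B by -0.22 ± 0.05 (0.00765) and TUBB3 by -0.36 ± 0.09 (0.0154), 4 of 10 beside 0.280% of all genes. At 0.005 uM TUBB alone was called in that fit, at -0.30 (adjusted p = 0.000624), beside 0.154%. Monastrol at 100 uM gave higher TUBB2A (0.41, 2.58e-05) and TUBB6 (0.21, 0.00714) in the same fit, beside 4.25% of all genes.

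At 24 h TUBB was still low with vincristine while TUBB2A and TUBB3 were at the DMSO level. TUBB had 13.03, 13.07 and 12.94 with 0.01 uM vincristine, against 13.30 to 13.62 in DMSO. TUBB2A had 12.24, 12.05 and 12.15, against 11.89 to 12.36, and TUBB3 had 11.41, 11.46 and 11.52, against 11.29 to 11.68, so that both overlapped DMSO. With all arrays only TUBB4B was called, with 13.37, 13.33 and 13.31, against 13.61 to 13.72 in DMSO, a change of -0.30 ± 0.06 (adjusted p = 0.0460), beside 0.0219% of all genes, and leaving out any drug replicate number or any 1 DMSO array ended that call. Without low-signal arrays (3 against 7) TUBB changed by -0.44 ± 0.06 (adjusted p = 5.4e-09), TUBB4B by -0.30 ± 0.03, TUBA1B by -0.38 ± 0.06, TUBA1C by -0.36 ± 0.10 and TUBG1 by -0.26 ± 0.05, 5 of 10 beside 5.59%. The difference between the 24 h and the 6 h change was called in that fit for TUBB2A (0.43 ± 0.08, adjusted p = 9.75e-06) and TUBB3 (0.37 ± 0.08, 0.00114), beside 1.12% of all genes higher, and for no member lower, beside 2.00%. With all arrays the same difference was called for neither gene.

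**Figure D5:**
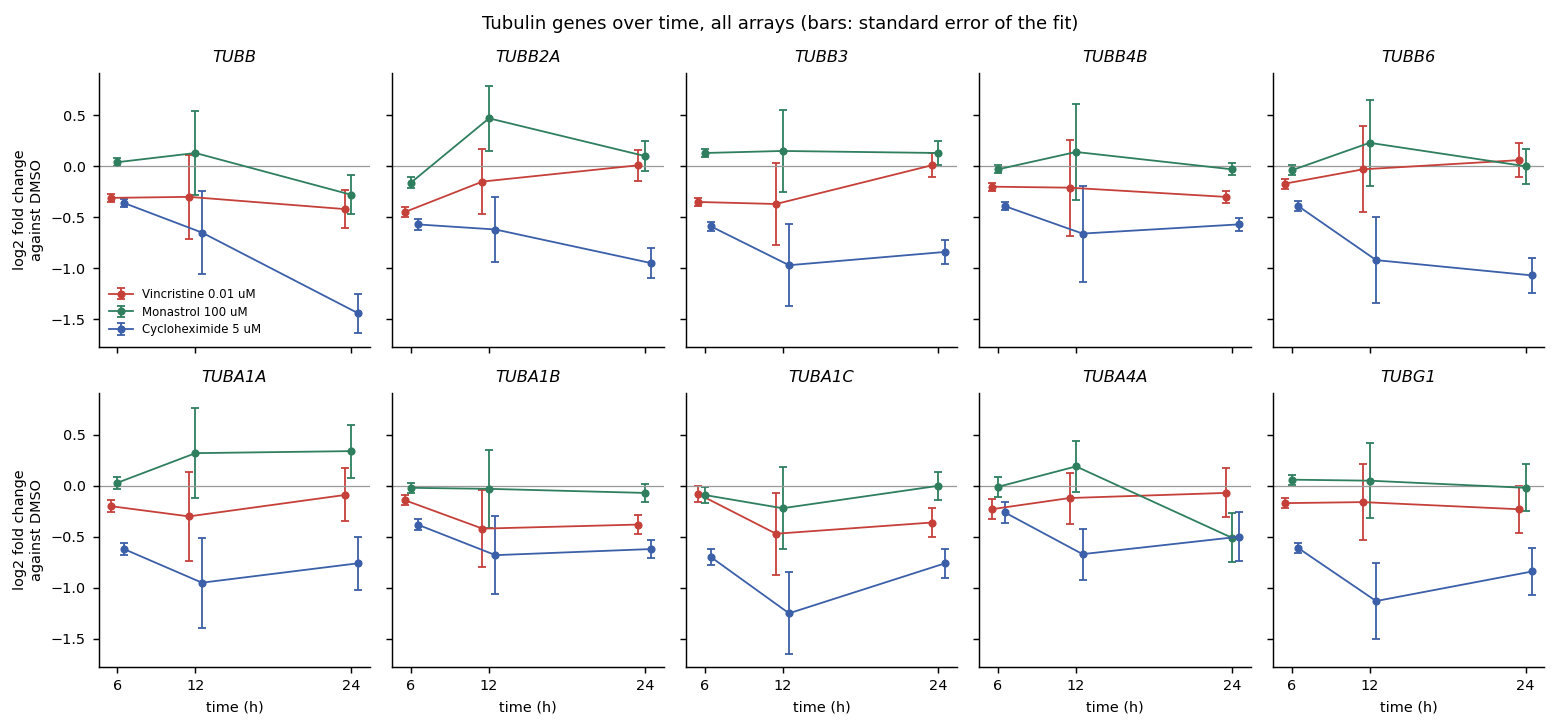
Change (log2, compound minus DMSO of the same time, ± SE, all arrays) of the 10 tubulin genes at 6, 12 and 24 h with 0.01 uM vincristine, 100 uM monastrol and 5 uM cycloheximide. Cycloheximide is below 0 for every gene at every time, and the error bars at 12 and 24 h are wider than at 6 h.

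With 5 uM cycloheximide all 10 genes had negative changes at the later times. At 12 h TUBB had 12.53, 12.57 and 12.49, against 13.07 to 13.31 in DMSO. The 10 changes lay between -1.25 and -0.62, and none was called with all arrays, beside 2.93% of all genes. Once drug replicate 2 was left out 9 were called, and the share of all genes called in that fit was not counted. Without low-signal arrays (3 against 4) all 10 were lower, from -0.59 for TUBA4A to -1.25 for TUBA1C, beside 13.2%. At 24 h 9 genes were called lower with all arrays, beside 7.52%. TUBB had 12.20, 12.21 and 11.58, against 13.30 to 13.62 in DMSO, a change of -1.44 ± 0.19 (adjusted p = 1.52e-07), and TUBA4A, not called, changed by -0.50. TUBA1A was lost without drug replicate 1 (adjusted p = 0.0505) or 3 (0.192). Drug replicates 1 and 3 were of low signal at 24 h, and with the 1 array left, assumed to vary like the other groups, TUBB changed by -1.24 and all 10 genes were called, beside 15.5%. In that array the ACTB control sets differed by 1.08 between the 3′ and 5′ ends and the bacterial control bioB was at 11.05, against 0.11 to 0.78 and 8.09 to 10.1 in the 7 DMSO arrays kept, and their part in these changes was not tested. In that fit the 24 h change was below the 6 h change for TUBB (-0.88), TUBB6 (-0.79), TUBB2A (-0.52), TUBB3 (-0.35), TUBA1B (-0.32) and TUBB4B (-0.19), beside 10.3% of all genes lower and 13.3% higher. With 100 uM monastrol no member was called at 24 h, beside 1.21%, though TUBB was without drug replicate 3 (adjusted p = 0.0485), and without low-signal arrays (2 against 7) TUBB was lower (-0.25, adjusted p = 0.00178), beside 17.9%, and TUBA1A higher (0.37, 0.00136), beside 14.9%. The 2 monastrol arrays kept had upper quartiles of 8.07 and 8.05 and bioB at 11.4 and 11.36, above the DMSO range for bioB. The part of array quality in these changes was not tested.

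Other treatments also moved tubulin genes at 24 h. Doxorubicin, an anthracycline that poisons topoisomerase II, lowered TUBB to 12.60, 12.58 and 12.64 at 0.101 uM, against 13.30 to 13.62 in DMSO, a change of -0.83 (adjusted p = 0.00231). TUBA1B changed by -0.74, and TUBA4A (0.75), TUBB2A (0.50) and TUBB3 (0.43) rose. Without low-signal arrays 4 of 10 were lower, beside 19.9% of all genes, and 4 higher, beside 15.9%. Camptothecin at 0.31 uM lowered TUBB (-0.44) and TUBA1B (-0.51) in the fit without low-signal arrays, beside 15.4% of all genes, and raised 5, TUBB3 most at 0.63, beside 18.6%. Rapamycin at 22 uM lowered 8 of 10 in that fit, beside 13.2%, with TUBG1 at -0.91, TUBB4B at -0.72 and TUBB at -0.51. Methotrexate, an inhibitor of dihydrofolate reductase, raised 6 there, TUBB2A most at 0.51, beside 15.0%, and lowered TUBA1A (-0.21), beside 20.6%. Etoposide at 0.812 uM lowered 5, beside 13.6%, and raised 2, beside 11.4%.

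Over 27 comparisons, tests of tubulin genes passed in 12 of 270 at 12 h (4.44%, beside 2.81% of the tests of all genes) and in 42 of 270 at 24 h (15.6%, beside 5.79%). At 12 h 9 of the 12 were falls with 0.001 uM geldanamycin, where 22.7% of all genes were lower. That group holds 1 low-signal array, drug replicate 2, in which TUBB had 7.09, against 13.23 and 13.12 in its other arrays, and without low-signal arrays 0 members and 0% of all genes were called. The remaining 3 were rises of TUBA4A, with camptothecin at 0.31 uM (0.87, adjusted p = 0.0126) and trichostatin A at 0.114 uM (1.05, 0.00220) and 0.143 uM (1.18, 0.000347). Of the 42 calls at 24 h, 6 were with 12.4 uM H-7, where every array was of low signal and 10773 of 18239 genes were called. Another 9 were with 5 uM cycloheximide (2460 genes called), 4 with 20.2 uM H-7 (3770) and 3 with 2.56 uM mitomycin C (4711). Those groups also held low-signal arrays. Doxorubicin at 0.101 uM held none and gave 5 (1107 genes called). For trichostatin A at 0.143 uM the TUBA4A change was smaller at 24 h than at 6 h, by -0.94 ± 0.29 (adjusted p = 0.0201), beside 9.81% of all genes called in either direction. TUBB with 20.2 uM H-7 was the other member of 140 such differences that passed with all arrays (-1.05 ± 0.38, adjusted p = 0.0479), beside 12.7%. Its 24 h arrays had 13.29, 13.19 and 10.67, the lowest in low-signal replicate 3, and without low-signal arrays the difference was -0.21 ± 0.07 (adjusted p = 0.0198).

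Of the other genes of tubulin biology 1 was called with 0.01 uM vincristine at 6 h, where 0.417% of all genes were lower and 0.532% higher. None of 12 other tubulin genes, 20 tubulin folding genes, 6 genes of tubulin mRNA decay, 10 ring complex genes or 13 tubulin-modifying genes was called, and of 18 genes of microtubule dynamics KIF2C, a kinesin that takes microtubule ends apart, was higher (0.20, adjusted p = 0.0389). At 0.005 uM 329 of 18239 genes were higher and 147 lower. There 4 of the 18 dynamics genes were higher, 1 of the 10 ring complex genes higher and 1 lower, and 1 of the 20 folding genes higher. The other lists had no call at that dose. With 5 uM cycloheximide, where 16.8% of all genes were lower and 16.5% higher, 10 of the 13 modifying genes were lower and 1 higher, among them TTL (-0.90), which adds tyrosine back to alpha-tubulin, and VASH1 (-0.92), which removes it. Of the folding genes 6 of 20 were lower, such as TBCB (-0.25) and TCP1 (-0.22), and 2 higher. TUBG2, a second gamma-tubulin, was lower (-0.86) and TUBE1, epsilon-tubulin, higher (0.35) among the other tubulins. The decay factor TTC5 was higher (0.19) and CNOT1 (-0.25) and CNOT7 (-0.38), of a deadenylase complex, lower. Of the ring complex 3 were higher, led by TUBGCP3 (0.65), and 3 lower, and of the dynamics list 5 were higher, led by EML4 (0.50), and 2 lower. With 100 uM monastrol, beside 2.99% of all genes lower and 4.61% higher, 1 gene was called in each list but the last, TUBG2 (0.39), CCT2 (-0.12), SCAPER (0.47), MZT1 (0.24) and AGTPBP1 (0.30).

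Across the 29 group means of 6 h, which share the plate format and the normalisation, the members fell into patterns. TUBA1A and TUBA1B were most alike (r = 0.90), followed by TUBB4B with TUBB6 (0.86), TUBA1A with TUBA1C (0.85) and TUBB4B with TUBG1 (0.85), and TUBB3 was most alike to TUBA4A (0.75). TUBB and TUBA4A were least alike (r = -0.39). Probe sets that may bind several tubulin mRNAs can share signal, and their part in these values was not tested. Of all other genes, AKT2 was most like TUBB (r = 0.77), followed by ANKRD10, NUDT3, CERKL and GANC (0.75 each). NDUFS5 was most like TUBA1B (0.83), followed by SAP30L and NQO1 (0.82 each) and TPI1 and COX7A2 (0.81 each).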

How the data were processed

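OCI-Ly3 cells were profiled on 282 HT HG-U219 arrays in 87 groups of compound, dose and time. The values are log2 expression per probe set as deposited, made with RMA per the submitters' processing notes, whose version is not given in the sources used here. Of 49386 probe sets, 45259 had 1 symbol in the platform annotation, 1327 had several, and 2800 were not listed. After 93 control sets were left out, each of 18239 genes was read from the set with the highest mean level. limma 3.58.1 (R 4.3.3) was fitted for each time over all 29 groups (lmFit, contrasts, eBayes with trend), with Benjamini-Hochberg adjustment over all genes in each comparison and calls at an adjusted p under 0.05. Changes between times came from 1 fit of all arrays. Figures and windows were made with Python 3.11.15. The number of arrays limits the precision.

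The rule for names was that all 10 tubulin genes are described, with at most 3 called genes of each list of related genes and the 5 genes most like TUBB and TUBA1B. The members and lists were chosen with earlier results of these data known. Arrays with the same replicate number did not deviate together (median r of 0 at each time over 975 pairs), so no block was used. Methotrexate carries replicate numbers 1 to 3 on 2 arrays each at every time, and all 6 were counted. No 2 arrays held identical values. The fit was tested on simulated data for 0.01 uM vincristine against DMSO with 18239 genes, and at 6 h it found 24.6% of changes of 0.3, 82.4% of 0.5 and 100% of 1 (log2). At 12 h it found 0%, 2.7% and 26.2% of the same sizes, and at 24 h 0%, 1.35% and 37.7%. Of the unchanged genes 8 were called at 6 h. The noise was drawn as normal, with 1 spread per gene for all groups of a time. In the data the low-signal arrays of 12 and 24 h sit in some groups only, so the shares at those times need not hold for these arrays. Alternatives were another quantile normalisation, no dim genes, the mean of all probe sets, a replicate block, no low-signal arrays, the 2 groups alone, 1 DMSO array left out in turn, the arrays of 1 drug replicate number dropped together from every compound, and methotrexate arrays averaged by number.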

Additional observations from a re-analysis of the deposited data

Results flagged for a closer look

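In groups of 4 to 10 arrays a single array can stand away from the rest, and the test used here marks about 1 in 20 groups by chance. Of 60 groups of tubulin levels tested, 7 were marked. With 100 uM methotrexate at 6 h TUBB3 had 11.75 in an array labelled replicate 3, and the nearest other array had 11.54. At 12 h with methotrexate the marked arrays were TUBB3 at 10.88 (nearest 11.13), TUBB4B at 13.59 (nearest 13.49) and TUBA4A at 6.85 (nearest 7.29), each in an array labelled replicate 3, and TUBB6 at 11.94 (nearest 12.21) in a low-signal array labelled replicate 2. In DMSO, TUBG1 had 11.15 in replicate 7 at 6 h (nearest 11.05) and TUBB4B had 13.72 in replicate 5 at 24 h (nearest 13.65).

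With all arrays the change against DMSO differed between 24 h and 6 h, by a test of the difference itself, in 2 of 140 cases. Of all genes 12.7% passed with 20.2 uM H-7 and 9.81% with 0.143 uM trichostatin A, in either direction. More of the 140 passed without low-signal arrays, among them TUBB2A (0.43) and TUBB3 (0.37) with 0.01 uM vincristine, beside 1.12% of all genes higher. The count of 2 therefore depends on the low-signal arrays. For TUBB with 20.2 uM H-7 the 24 h change minus the 6 h change was -1.05 ± 0.38 (limma, adjusted p = 0.0479), and -0.21 ± 0.07 without low-signal arrays (adjusted p = 0.0198). For TUBA4A with 0.143 uM trichostatin A it was -0.94 ± 0.29 (adjusted p = 0.0201), with changes of 0.37 at 24 h and 1.31 at 6 h, and -0.75 without low-signal arrays (adjusted p = 0.000894).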

How the results depend on the processing

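Of 4600 changes of single tubulin genes under the alternatives, 4430 stayed on their side of the threshold, 67 lost the call, 103 gained it and 0 were marked as reversed. Small changes short of the threshold could still change sign. TUBB2A with 0.01 uM vincristine at 24 h had 0.01 with all arrays and -0.02 without low-signal arrays. The counts of called genes moved mostly at 12 and 24 h, and the cause was not tested. Without low-signal arrays vincristine at 0.01 uM had 4 calls at 12 h and 5 at 24 h in place of 0 and 1, monastrol at 100 uM had 2 and 2 in place of 0 and 0, cycloheximide at 5 uM had 10 at 12 h in place of 0, and time differences numbered 46 in place of 2. The totals over all 27 comparisons have no value there at 12 and 24 h, since some groups had no array left. For the 46 time differences together and for the totals given below, the share of all genes was not counted. With only the 2 groups compared, the totals were 63 at 12 h and 80 at 24 h in place of 12 and 42, vincristine at 0.01 uM had 4 at 12 h and 4 at 24 h, monastrol at 100 uM 1 and 2, cycloheximide at 5 uM 9 at 12 h, and doxorubicin at 6 h 0 in place of 2.

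With the replicate block the totals were 69 at 6 h, 11 at 12 h and 26 at 24 h. Under that block vincristine at 0.005 uM had 2 calls at 6 h in place of 5, monastrol at 100 uM 2 in place of 1, doxorubicin 1, etoposide at 0.812 uM 1, cycloheximide at 12 h 1, vincristine at 0.01 uM at 24 h 0, and time differences 1. Vincristine at 0.01 uM kept its count of 4 at 6 h. Another quantile normalisation gave doxorubicin 1, cycloheximide at 12 h 3 and vincristine at 24 h 2. The mean of all probe sets gave doxorubicin 1, etoposide 2, methotrexate 1, mitomycin C 1, cycloheximide at 12 h 1 and vincristine at 24 h 0, and at 6 h H-7 8, rapamycin 9, vincristine at 0.01 uM 6, trichostatin A 6 and geldanamycin 3 in place of 6, 7, 4, 8 and 4. Without the 40% dimmest genes etoposide had 1, methotrexate 1, monastrol at 6 h 2, cycloheximide at 12 h 1 and vincristine at 24 h 2.

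Leaving out 1 DMSO array, or 1 replicate number from every compound together, gave totals of 62 to 78 at 6 h, 10 to 63 at 12 h and 31 to 43 at 24 h, with 62, 63 and 31 without drug replicate 2. At 6 h the ranges were 3 to 6 for vincristine at 0.01 uM, 3 to 5 at 0.005 uM, 0 to 2 for monastrol, 9 to 10 for cycloheximide, 6 to 7 for camptothecin, 7 to 8 for trichostatin A, 2 to 4 for geldanamycin, 0 to 2 for doxorubicin and for aclacinomycin A, and 0 to 1 for etoposide and for methotrexate. H-7 had 6 and rapamycin 7 throughout, and blebbistatin and mitomycin C 0. At 12 h the ranges were 0 to 2 for vincristine, 0 to 2 for monastrol and 0 to 9 for cycloheximide, and at 24 h vincristine had 0 throughout, monastrol 0 to 1 and cycloheximide 8 to 9.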
